A study of Mus musculus with 36 samples.

Results

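Livers of male C57BL/6J mice kept awake for 6 h were compared with livers of home-cage controls of the same strain, and the 6 arrays of this comparison were 6 of the 36 in the series. Members were chosen by label alone: the 3 liver arrays titled as sleep-deprived C57BL/6J at Zeitgeber time (ZT) 6 and the 3 titled as its control at ZT 6. All mice were 12 to 13 weeks old, on a light and dark cycle with free access to food and water, and ZT 0 is the onset of light. Sleep deprivation ran from ZT 0 to ZT 6, and both groups were killed at ZT 6. Neither group carried a transgene or a drug treatment in the labels. Each array held equal amounts of total RNA from 3 mice, so a group stood for 9 mice and the spread between arrays is that between pools, not between single animals. The series also measured AKR/J and DBA/2J mice and whole brain in the same design, in 12 groups of 3 arrays. Their values served for comparison, but the AKR/J and DBA/2J liver arrays also entered the estimate of spread behind each test. From the 6 C57BL/6J arrays alone 219 probe sets were called, 174 of them among the 277 reported here. Because whole liver was used, fewer cells of a type and less RNA per cell cannot be told apart.

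The liver buffers blood glucose between meals. During fasting or stress, glucocorticoids, glucagon and low insulin drive gluconeogenesis, amino acid breakdown and fatty acid use, and the glucocorticoid receptor acts by binding near target genes such as Fkbp5, Tsc22d3 and Tat. The liver clock, feeding and body temperature also set daily rhythms of many transcripts, among them heat shock genes and cold-inducible RNA-binding proteins. The hormone levels, food intake and body temperature of these mice were not analysed here.

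Values are log2 expression levels made by RMA, which corrects background, forces 1 distribution on the arrays and reduces each probe set to a single value. A difference of 1 is a 2-fold change. Correlations between C57BL/6J liver arrays were 0.994 to 0.9958 within a group and 0.9913 to 0.9949 between groups. RNA quality was read from the 3' minus 5' difference of the Actb probe sets, which was 0.9967 to 1.2545 on the 6 arrays. Control array 1 of DBA/2J liver stood apart at 2.1565, and without it 304 probe sets were called in C57BL/6J. The median of the control arrays was 4.12 to 4.13 and that of the sleep-deprived arrays 4.089 to 4.0989. Hepatocyte markers fitted the tissue label: 9 of the 12 listed were measured, and Alb (albumin), Apoa1 and Ttr had control means of 14.70, 14.54 and 14.35 near the top of the scale, which ended at 14.91.

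The comparison asked which liver transcripts differ after 6 h of wakefulness in C57BL/6J. Most genes called were higher. Limma called 277 of 45037 probe sets at an adjusted p under 0.05 (0.615%), of which 236 rose (0.524%) and 41 fell (0.091%). By 1 representative probe set per gene, 146 of 18193 genes were called (0.803%), with 120 higher (0.66%) and 26 lower (0.143%). The median change of all genes was -0.0089. At an unadjusted p under 0.05 there were 1724 of the 18193 genes, higher or lower. Counts of list members at that p are to be read beside this share. Among the 120 genes that rose the changes ran from 0.34 to 2.52 with a median of 0.78, and 30 exceeded 2-fold. The 26 that fell changed by -0.49 to -1.49 with a median of -0.65, and 3 exceeded 2-fold. Of 81 risers with several probe sets, all probe sets were called for 14, and no probe set was called in the opposite direction. The same held for 1 of 11 such genes among those that fell. A further 27 called probe sets had no gene symbol and 9 had several.

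The 3 sleep-deprived pools did not respond equally. Sleep-deprived array 3 had the highest level for 71 of the 120 risers and the lowest for 15 of the 26 genes that fell. Relative to the control mean, the median riser stood 0.71, 0.71 and 0.91 higher on sleep-deprived arrays 1, 2 and 3. The risers were chosen by this contrast, so these are descriptions without a test. Without sleep-deprived array 3 limma called 108 probe sets and 60 genes. The counts were 155 and 81 without control array 1, and 163 and 87 without control array 2. All 277 probe sets kept their direction in each case. In every called gene the groups did not overlap, so leaving out 1 of these arrays could not reverse its direction.

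**Figure D1:**
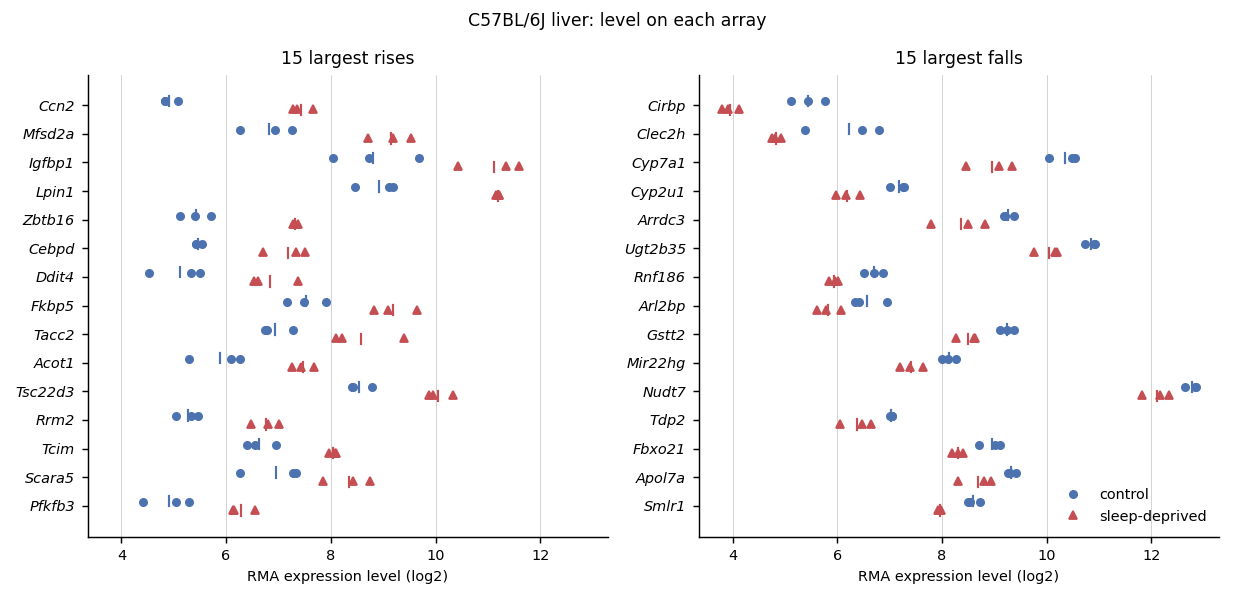
RMA level (log2, horizontal) of the 15 genes with the largest rise and the 15 with the largest fall among called genes in C57BL/6J liver. Circles are the 3 control arrays, triangles the 3 sleep-deprived arrays and short lines the group means. Ccn2 and Cirbp head the rises and falls. In each of the 30 genes the 2 groups do not overlap, as in every called gene. Of all genes, 8.04% had all sleep-deprived arrays above all controls.

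The largest rises joined matrix, lipid and insulin-related genes. Ccn2, also known as connective tissue growth factor, is a secreted matricellular protein. Its control arrays read 4.82, 4.84 and 5.08, and its sleep-deprived arrays 7.66, 7.28 and 7.35. The groups lay far apart, and Ccn2 rose by 2.52 ± 0.27 (log2, SE, n = 3 arrays a group) or 5.72-fold (adjusted p = 6.948e-05). Mfsd2a, a transporter of lysophosphatidylcholine, read 6.26, 7.25 and 6.94 in controls and 9.18, 8.71 and 9.53 after sleep deprivation. Every sleep-deprived array exceeded every control, and the rise was 2.32 ± 0.32 or 5.01-fold (adjusted p = 7.951e-04). Igfbp1, a secreted binding protein of insulin-like growth factors that insulin represses, read 8.03, 9.68 and 8.72 in controls against 11.35, 10.43 and 11.59. Its controls were widely spread, and control array 2 came close to sleep-deprived array 2. The rise was 2.31 ± 0.45 (adjusted p = 0.0173), and it did not pass without control array 1 or 3 or sleep-deprived array 1 or 3.

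Lpin1 encodes lipin 1, a phosphatidate phosphatase that also coactivates fatty acid oxidation genes. It read 9.10, 8.47 and 9.19 in controls, while the sleep-deprived arrays were nearly equal at 11.16, 11.20 and 11.21. It rose by 2.27 ± 0.19 or 4.82-fold (adjusted p = 9.445e-06), and both of its probe sets were called. Tacc2, a centrosomal coiled-coil protein, rose by 1.63 ± 0.25, with sleep-deprived array 3 at 9.40 above the other two at 8.20 and 8.10. Tcim, a small regulator of transcription, rose by 1.42 ± 0.18 from 6.40 to 6.94 in controls to 7.97 to 8.10. Scara5, a ferritin receptor, rose by 1.38 ± 0.29 (adjusted p = 0.0323), with control array 2 at 6.26 below the other controls at 7.33 and 7.28. The call of Scara5 was lost under 6 of 16 alternatives.

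**Figure D2:**
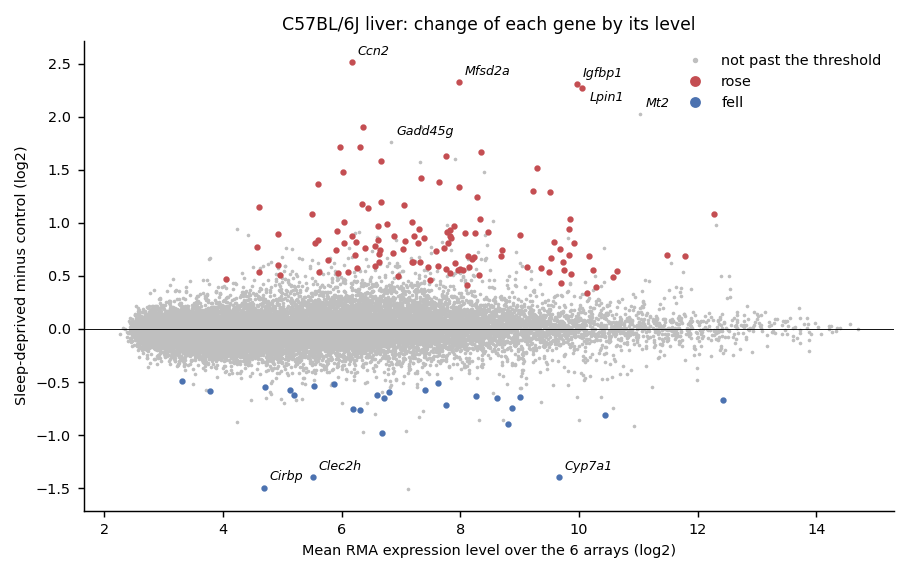
Change in C57BL/6J liver (sleep-deprived minus control, log2, vertical) against the mean RMA level over the 6 arrays (log2, horizontal), 1 point for each of 18193 genes. The 120 genes that rose and the 26 that fell are coloured; Mt2 and Gadd45g had large changes and did not pass.

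List counts use the representative probe set of each gene. The lists were chosen with earlier results of these data known, so their counts and ranks are descriptions without a test. Gpt2, Insig2, Dnajb1, Cyp2b10, Ighm and Car3, all list members, were called by another probe set only and are not counted. There Car3 fell by 2.36 and the others rose by 0.49 to 1.97. Among the pathway lists, the genes known to be induced by glucocorticoids had the highest median change, 0.66 against -0.0089 over all genes. Of 29 measured, 11 rose and 18 had groups that did not overlap, all higher, where 8.04% of all genes did. No member fell, and 1 was lower at an unadjusted p under 0.05, Tsc22d1 at -0.86. The 11 were Mfsd2a, Lpin1, Zbtb16, Cebpd, Ddit4, Fkbp5, Tsc22d3, Angptl4, Tat, Per1 and Klf15. Without control array 1 or without sleep-deprived array 3 the count was 7.

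Transcription factors of the list came first. Zbtb16, a zinc finger repressor, read 5.13, 5.41 and 5.71 in controls and 7.37, 7.29 and 7.32 after sleep deprivation. The sleep-deprived pools were closely grouped above all controls, and Zbtb16 rose by 1.91 ± 0.20 or 3.75-fold (adjusted p = 6.948e-05). Its dimmest called probe set rose by 2.35, and 1 of its 3 probe sets did not pass. Cebpd, a bZIP factor of the acute stress response, read 5.43, 5.42 and 5.54 in controls against 7.33, 6.70 and 7.50. Controls were almost equal, sleep-deprived array 2 was the lowest of its group, and Cebpd rose by 1.71 ± 0.19 or 3.28-fold (adjusted p = 8.087e-05). Klf15, a factor that promotes amino acid use for glucose production, rose by 0.55 ± 0.11 (adjusted p = 0.0218), from 9.90 to 10.08 in controls to 10.42 to 10.58.

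Feedback and signalling genes moved with them. Fkbp5, a co-chaperone that lowers the hormone affinity of the glucocorticoid receptor, read 7.91, 7.16 and 7.49 in controls and 8.83, 9.10 and 9.64 after sleep deprivation. The groups were separate, and Fkbp5 rose by 1.67 ± 0.21 or 3.18-fold (adjusted p = 2.853e-04). Tsc22d3, also called GILZ, a glucocorticoid-induced leucine zipper protein, read 8.43, 8.40 and 8.78 against 9.87, 10.34 and 9.95. It rose by 1.52 ± 0.18 or 2.86-fold (adjusted p = 2.018e-04), and 3 of its 4 probe sets were called. Ddit4, an inhibitor of the growth kinase complex mTORC1, rose by 1.71 ± 0.26 (adjusted p = 0.0023), with sleep-deprived array 3 the highest at 7.37 and control array 2 the lowest at 4.53.

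Not every gene of the list passed. Mt2, a metallothionein, read 10.43, 9.26 and 10.39 in controls and 12.01, 11.44 and 12.69 after sleep deprivation. The groups did not overlap, yet the change of 2.02 ± 0.59 had an adjusted p of 0.1814. Gadd45g overlapped between groups, with 5.52, 7.78 and 4.57 against 8.09, 6.99 and 8.08 (1.76 ± 0.61, adjusted p = 0.3407). Sgk1 and Dusp1 changed by 0.55 and 0.66 without passing, and Nr3c1, the gene of the glucocorticoid receptor itself, gave -0.16 ± 0.11.

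Promoter sequences were searched for known motifs because these genes moved together. RefSeq promoter windows of assembly GRCm38.p6 were matched by symbol for 14452 of the 18193 genes, 91 of the 120 that rose among them, and the 250 bases before each start were searched on both strands. The E-box CACGTG, the binding motif of clock activators, stood in the window of 14 of the 91 risers (15.4%) and of 8.73% of all genes. Of the 8 called glucocorticoid-list genes with a window, 3 held it. Of all 23 genes of that list with a window, called or not, 7 held it (30.4%), and of 18 clock genes 5 (27.8%). The D-box TTATGCAA stood in 3 of the 91 (3.3%) and in 0.761% of all, and the full glucocorticoid response palindrome (AGAACA, any 3 bases, TGTTCT) in 0 of the 91 and in 0.0138% of all. Only 2 of the 14452 genes held this palindrome, 1 of them in the glucocorticoid list, so its absence from the 91 is uninformative. Imperfect or more distant sites were not searched. A match is a description of the sequence, not a site of binding. The 3 stretches with an E-box are shown 5′ to 3′ on the strand of the gene, with the E-boxes in capitals. They lie at chr17:28486283-28486348 (minus strand), chr6:90462326-90462439 (plus strand) and chr11:69098753-69098818 (plus strand).
Fkbp5: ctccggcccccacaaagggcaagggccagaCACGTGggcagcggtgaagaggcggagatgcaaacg
Klf15: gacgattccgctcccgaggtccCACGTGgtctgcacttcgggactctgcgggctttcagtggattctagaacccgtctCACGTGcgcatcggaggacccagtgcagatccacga
Per1: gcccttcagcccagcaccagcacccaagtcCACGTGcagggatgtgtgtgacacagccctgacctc

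Genes listed under gluconeogenesis and glucose release rose in part. Of 22 measured members of the gluconeogenesis list, 5 rose, and the list median was 0.17. These were Igfbp1, Pfkfb3, Foxo1, Klf15 and Slc37a4. Only Slc37a4 among them carries out a step of glucose release. Foxo1 and Klf15 are transcription factors, Igfbp1 is a secreted binding protein and Pfkfb3 acts on glycolysis. Pfkfb3, which makes the glycolytic regulator fructose 2,6-bisphosphate, read 5.04, 4.41 and 5.29 in controls and 6.16, 6.55 and 6.14 after sleep deprivation. The groups were apart by less than 1 unit at their closest, and the rise was 1.37 ± 0.25 (adjusted p = 0.0116). Foxo1, the insulin-restrained factor that activates gluconeogenic genes, rose by 0.56 ± 0.11 (adjusted p = 0.0205), and this call was lost under 6 of 16 alternatives. Slc37a4, the glucose 6-phosphate carrier of the endoplasmic reticulum (ER), rose by 0.55 ± 0.10 (adjusted p = 0.0140).

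The rate-limiting enzymes did not pass. Pck1, phosphoenolpyruvate carboxykinase, read 11.89, 12.30 and 12.26 against 12.77, 12.37 and 12.79, a change of 0.50 ± 0.14 (adjusted p = 0.1537). The lowest sleep-deprived array exceeded the highest control by little. G6pc, glucose 6-phosphatase, gave 0.46 ± 0.22 (adjusted p = 0.6133). The count of 5 fell to 1 without sleep-deprived array 3, to 2 without any single control array and to 3 without sleep-deprived array 1.

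Beside these, 2 of 24 genes of amino acid breakdown rose, Tat and Slc38a2. Tat, tyrosine aminotransferase, a textbook glucocorticoid target, read 11.51, 11.66 and 12.02 in controls and 12.89, 12.66 and 12.91 after sleep deprivation. It was higher on every sleep-deprived array, by 1.09 ± 0.20 or 2.13-fold (adjusted p = 0.0107). Slc38a2, a carrier of small neutral amino acids, rose by 0.82 ± 0.12 (adjusted p = 0.0014), and the other 22 did not pass. In the insulin and insulin-like growth factor list 2 of 23 rose, Igfbp1 and Foxo1, while Igf1 gave -0.06 ± 0.10 and Irs2 -0.03 ± 0.18. Of 18 glycogen genes 1 rose, Ppp1r3b, a subunit that targets protein phosphatase 1 to glycogen, by 1.03 ± 0.21 (adjusted p = 0.0268). Its controls were spread from 8.79 to 9.93 and it did not pass under 8 of 16 alternatives.

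Lipid genes rose at a few points of the pathway. In the list of fatty acid oxidation and its regulator PPARA, 3 of 29 rose, with a median of 0.07. Acot1, a cytosolic acyl-CoA thioesterase, read 5.28, 6.26 and 6.09 in controls against 7.69, 7.26 and 7.44. Sleep-deprived pools were all higher, and Acot1 rose by 1.58 ± 0.21 (adjusted p = 6.554e-04). Angptl4, a secreted inhibitor of lipoprotein lipase, rose by 1.29 ± 0.23 or 2.44-fold (adjusted p = 0.0091), from 8.56 to 9.13 in controls to 9.78 to 10.47. Plin5, a lipid droplet coat protein that links droplets to mitochondria, rose by 0.97 ± 0.12 (adjusted p = 2.333e-04). Cpt1a, the entry enzyme of mitochondrial oxidation, gave 0.12, and Ppara -0.03. Cyp4a14 had 1 control at 5.55 and the others at 8.86 and 9.71, so its change of 1.01 ± 0.83 is uncertain.

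In fatty acid and triglyceride synthesis 3 of 27 rose, Lpin1, Mfsd2a and Lpin2, and the list median was 0.25. Lpin2, the second liver lipin, rose by 0.64 ± 0.12 (adjusted p = 0.0165), from 9.22 to 9.55 in controls to 10.03 to 10.06. The call of Lpin2 was lost under 6 of 16 alternatives. Acaca, acetyl-CoA carboxylase 1, changed by 0.66 ± 0.15 without overlap of groups but with an adjusted p of 0.0540. Srebf1, the insulin-driven regulator of lipid synthesis, gave -0.53 ± 0.19 (adjusted p = 0.3662). In cholesterol synthesis and uptake none of 22 passed by the representative probe set, and 3 were higher at an unadjusted p under 0.05. Insig2, which retains the sterol sensor SCAP in the ER, gave 0.41 there, and 1 of its 3 probe sets rose, by 0.64 ± 0.13 (adjusted p = 0.0206).

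**Figure D3:**
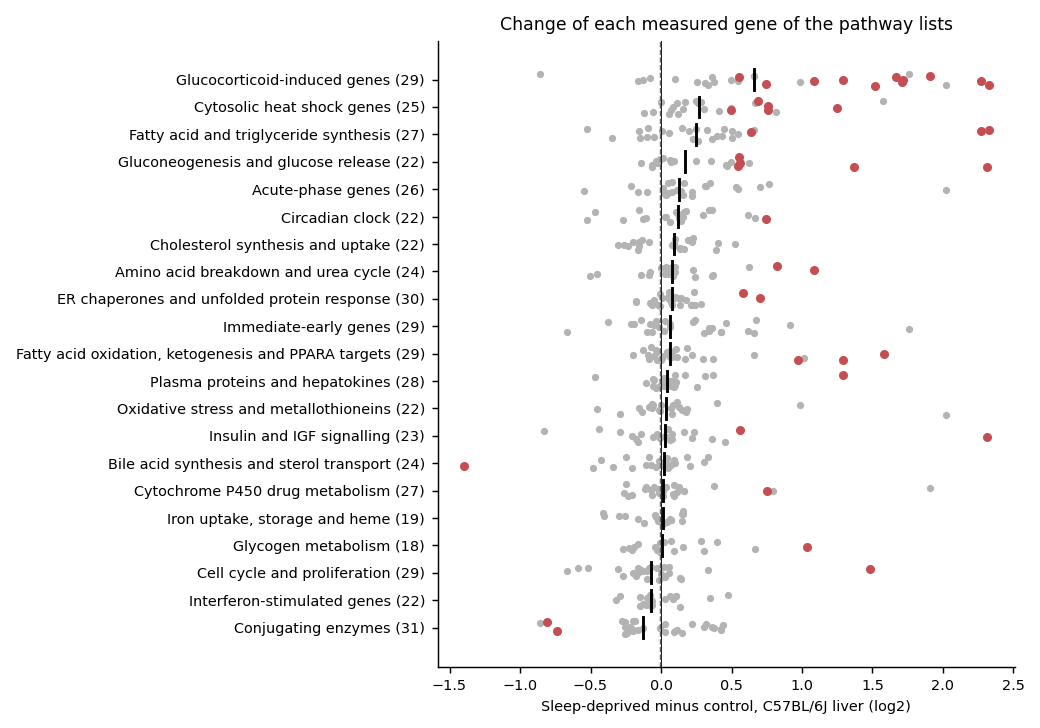
Change in C57BL/6J liver (log2, horizontal) of every measured gene of the 21 pathway lists, with the number measured in brackets. Red points passed in limma, grey points did not, black bars are list medians and the dashed line is the median of all genes at -0.0089; the glucocorticoid list has the highest median, 0.66.

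The falls held 1 enzyme of bile acid synthesis and a few of detoxification. Cyp7a1, the rate-limiting enzyme of bile acid synthesis, read 10.54, 10.04 and 10.49 in controls and 9.09, 9.34 and 8.45 after sleep deprivation. Every sleep-deprived array was lower, and Cyp7a1 fell by 1.40 ± 0.25 on the log2 scale, 2.63-fold lower (adjusted p = 0.0084). Its other probe set gave -1.36 with an adjusted p of 0.1717, and the call was lost with trended variances and without control array 1 or sleep-deprived array 3. It was the only one of 24 bile acid and sterol transport genes to pass. The list median was 0.02, and 13 of the 24 had a change above 0. Cyp7b1 and Cyp8b1, which act later in synthesis, gave -0.48 ± 0.19 and -0.43 ± 0.12 and did not pass (adjusted p = 0.4702 and 0.1777).

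Of 31 conjugating enzymes 2 fell, and the list median was the lowest of the pathway lists, -0.13. Ugt2b35, a glucuronosyltransferase, read 10.73, 10.89 and 10.92 against 10.15, 10.20 and 9.75. All sleep-deprived arrays were lower, by -0.81 ± 0.13 (adjusted p = 0.0044). Gstt2, a glutathione transferase, fell by 0.74 ± 0.10 (adjusted p = 9.432e-04), from 9.10 to 9.38 in controls to 8.27 to 8.63. Among 27 genes of cytochrome P450 drug metabolism 1 rose, the xenobiotic receptor Nr1i2, by 0.75 ± 0.16 (adjusted p = 0.0398), and this call was lost under 8 of 16 alternatives. Cyp2b10 had controls at 7.83, 5.64 and 5.70 against 7.93, 8.28 and 8.67, and its change of 1.91 ± 0.46 had an adjusted p of 0.0803. Of its 3 probe sets 1 rose, by 1.97 ± 0.40 (adjusted p = 0.0225). Outside the lists, Cyp2u1, a fatty acid hydroxylase, fell by 0.98 ± 0.14 (adjusted p = 0.0011).

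Other falls were of mixed kind. Clec2h, a C-type lectin-related gene, read 6.47, 6.80 and 5.39 in controls against 4.92, 4.80 and 4.75 and fell by 1.40 ± 0.22 (adjusted p = 0.0031). All 3 of its probe sets were called. Arrdc3, an arrestin-like adaptor, fell by 0.89 ± 0.18, with sleep-deprived array 3 the lowest at 7.79. Rnf186, a RING-type ubiquitin ligase, fell by 0.77 ± 0.10 (adjusted p = 5.170e-04). Nudt7, a peroxisomal hydrolase of coenzyme A, Tdp2, a DNA repair phosphodiesterase, and Mir22hg, the host transcript of miR-22, fell by 0.67, 0.65 and 0.72. Arl2bp, Fbxo21, Apol7a and Smlr1 fell by 0.75, 0.65, 0.64 and 0.63.

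Temperature and proteotoxic stress genes were next. Cirbp, a cold-inducible RNA-binding protein, showed the largest fall among the representative probe sets called, while single probe sets of Clec2h, Car3 and Nrep that do not represent their gene fell further. It read 5.76, 5.12 and 5.44 in controls and 3.91, 4.13 and 3.81 after sleep deprivation. The groups lay well apart, and Cirbp fell by 1.49 ± 0.15 on the log2 scale, 2.82-fold lower (adjusted p = 4.062e-05). It was called under every one of the 16 alternatives. Its sleep-deprived levels lay close to the array medians, where RMA values are compressed.

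Cytosolic heat shock genes had the second highest list median, 0.27, and 5 of 25 rose. Hsph1, an HSP110 family chaperone, read 7.40, 7.63 and 7.95 in controls and 8.75, 8.97 and 9.01 after sleep deprivation. The groups did not overlap, and Hsph1 rose by 1.25 ± 0.14 or 2.37-fold (adjusted p = 1.520e-04). Hspa8, the constitutive HSP70, rose by 0.69 ± 0.08 (adjusted p = 1.667e-04), and its dimmer probe sets rose by 0.94 and 1.15. Chordc1, an HSP90 cochaperone, rose by 0.76 ± 0.10, Hspb8, a small heat shock protein, by 0.76 ± 0.15 and Dnaja1, an HSP40 cochaperone, by 0.49 ± 0.09. Hspa1b, the inducible HSP70, read 6.18, 6.66 and 6.77 against 7.31, 8.03 and 8.99, and its change of 1.58 ± 0.46 did not pass (adjusted p = 0.1888). Without control array 1 or sleep-deprived array 3 the count of 5 was 3.

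The ER chaperone and unfolded protein response list had a median of 0.08. Of its 30 genes 2 rose, Herpud1, a component of ER-associated degradation, by 0.70 ± 0.12 (adjusted p = 0.0087), and Creld2, a secreted ER stress protein, by 0.58 ± 0.13 (adjusted p = 0.0446). The call of Creld2 was lost under 9 of 16 alternatives. Hspa5, the main ER chaperone, read 11.91, 11.69 and 11.61 against 11.73, 11.88 and 11.96 and so overlapped between groups (0.12 ± 0.10). The window before Creld2 holds the ER stress response element (CCAAT, any 9 bases, CCACG), which 0.131% of all genes with a window hold. The element is shown as a description of the sequence. Only assembly GRCm38.p6 was searched, and no sequence of AKR/J or DBA/2J was read. The effect on Creld2 differed between strains, as described with the strain comparison, and any part of the element in that was not tested. The stretch lies at chr15:88819490-88819568 (plus strand), and the capitals mark the element, which reads on the opposite strand.
Creld2: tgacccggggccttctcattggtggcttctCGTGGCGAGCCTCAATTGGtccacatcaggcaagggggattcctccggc

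Of 22 clock genes 1 rose, Per1, a clock repressor that glucocorticoids also induce, with a list median of 0.12. Per1 read 6.20, 6.36 and 6.26 in controls and 6.70, 6.97 and 7.40 after sleep deprivation. All sleep-deprived arrays were higher, by 0.75 ± 0.16 or 1.68-fold (adjusted p = 0.0398), and the call was lost under 8 of 16 alternatives, among them the omission of any single control array. Per2 gave 0.18 ± 0.19, Arntl 0.36 ± 0.20 and Nr1d1 0.03 ± 0.16, all with overlapping groups. Dbp, a clock output factor, had lower values without overlap, 9.80, 9.74 and 9.95 against 9.48, 9.46 and 8.97, with a change of -0.52 ± 0.19 (adjusted p = 0.4080). Ciart, a clock repressor, changed by 0.67 ± 0.20 (adjusted p = 0.2188).

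Several lists had no gene past the threshold in limma. Over all genes, 1724 of 18193 had an unadjusted p under 0.05 in either direction, and no list was tested against that share. None of 29 immediate-early genes passed, with 9 higher and 1 lower at an unadjusted p under 0.05, and Jun and Junb gave 0.68 and 0.92, each with an adjusted p of 0.0821. None of 26 acute-phase genes passed (5 higher at an unadjusted p under 0.05). Lcn2 there ranged from 6.66 to 11.95 among controls alone. None passed among 22 interferon-stimulated genes (0 at an unadjusted p under 0.05), 22 oxidative stress and metallothionein genes (1 higher, 2 lower) and 19 iron genes (3 lower). Of 29 cell cycle genes 1 rose, Rrm2, the small subunit of ribonucleotide reductase, and of 28 plasma protein and hepatokine genes 1, Angptl4.

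Rrm2 read 5.46, 5.05 and 5.33 in controls and 6.47, 7.02 and 6.81 after sleep deprivation. The groups were a full unit apart, and Rrm2 rose by 1.48 ± 0.16 or 2.79-fold (adjusted p = 8.087e-05), with all 3 probe sets called. The other 28 cell cycle genes did not pass, and the list median was -0.07.

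Few markers of liver cell types and of neighbouring tissues were called. Their counts at an unadjusted p under 0.05 stand beside 1724 of 18193 for all genes and were not tested. The summed linear level of 9 hepatocyte markers was 120414 to 123081 on control arrays and 126329 to 131184 on sleep-deprived arrays, and Tat was the only one called. None of 12 pericentral and 8 periportal hepatocyte markers passed, with 4 periportal markers higher and 2 lower at an unadjusted p under 0.05. Of 13 endothelial markers 1 rose, Lyve1, a hyaluronan receptor of liver sinusoids, by 1.18 ± 0.20 (adjusted p = 0.0061), from 5.58 to 6.09 in controls to 6.74 to 7.17. The summed endothelial level was 1612 to 1950 against 1821 to 2096, so these sums overlapped. None of 13 stellate cell and fibroblast markers passed. In 8 of them the sleep-deprived arrays were higher without overlap, where 8.04% of all genes were. The summed level of the 13 was 2232 to 2585 against 2787 to 2924. Ccn2, which fibroblasts and stellate cells also make, rose beside them, and the part of these cells in its rise was not tested.

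Markers of the other types did not pass in limma: 14 of Kupffer cells and macrophages (1 higher at an unadjusted p under 0.05), 7 of bile ducts (1 higher), 10 of lymphocytes (0), 8 of neutrophils (0) and 5 of red blood cells (1 lower). The same held for 10 of pancreatic acinar cells (2 lower), 7 of adipocytes (0), 9 of skeletal muscle (1 lower) and 9 of intestine and gall bladder (1 lower). Genes of antibody-secreting cells were seen among the risers after the values were known. Igha, the heavy chain of immunoglobulin A, read 6.39, 6.18 and 6.26 in controls and 6.52, 7.72 and 7.55 after sleep deprivation. Sleep-deprived array 1 stood close to the controls, and the rise was 0.99 ± 0.21 (adjusted p = 0.0398). Jchain, the joining chain of IgA and IgM, rose by 1.15 ± 0.19 (adjusted p = 0.0052), with sleep-deprived array 1 again the lowest of its group at 4.81.

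The effect was then set beside the same contrast in AKR/J and DBA/2J liver, which share no arrays with it. AKR/J had 320 called probe sets (0.711%) and 187 called genes (1.03%), and DBA/2J had 283 (0.628%) and 154 (0.846%). Of the 120 genes that rose in C57BL/6J, 25 rose in AKR/J too, which is 20.8% of the C57BL/6J and 24.3% of the 103 AKR/J risers (0.566% of all genes). In DBA/2J 40 rose, or 33.3% and 40.4% of 99 (0.544%). Of the 26 genes that fell, 9 fell in AKR/J (0.462% of all genes fell there) and 8 in DBA/2J (0.302%). No gene of the 146 was called with the opposite sign in either strain. The median change of the 120 risers was 0.36 in AKR/J and 0.50 in DBA/2J, against 0.78 in C57BL/6J, where they were chosen.

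In all 3 strains 16 genes rose and 5 fell. The risers were led by Lpin1 (1.09 in AKR/J and 0.86 in DBA/2J), Zbtb16 (1.08 and 1.24), Acot1 (1.23 and 1.21), Tsc22d3 (0.97 and 1.09), Pfkfb3 (1.29 and 1.21) and Angptl4 (1.22 and 1.08), and also held Hsph1, Hspa8, Chordc1 and Dnaja1. Cirbp fell by 1.87 in AKR/J and by 1.31 in DBA/2J, and Ugt2b35 by 0.97 and 0.74. Fkbp5, Cebpd and Ddit4 gave 0.47 to 0.83 in the other strains and did not pass there. Their differences from C57BL/6J did not pass either, for Cebpd 1.19 against AKR/J (adjusted p = 0.1983) and 1.21 against DBA/2J (adjusted p = 0.3740).

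**Figure D4:**
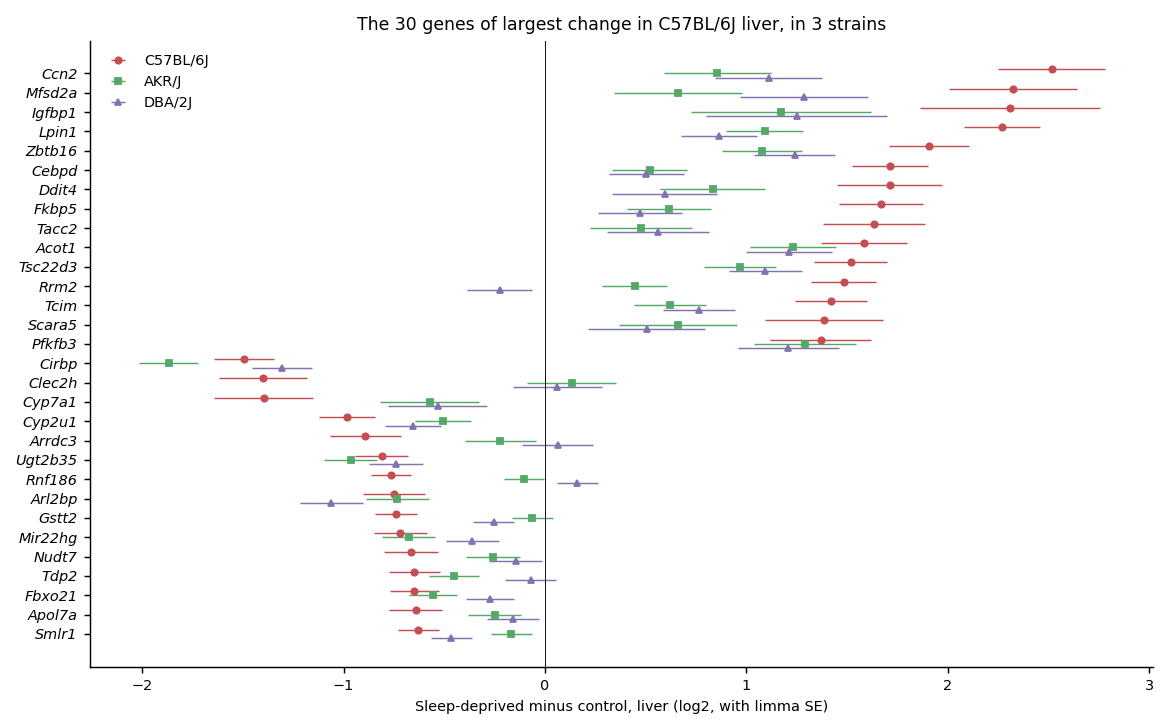
Change with sleep deprivation in liver (log2, horizontal, with limma SE, n = 3 arrays a group) of the 30 genes of largest change in C57BL/6J, in C57BL/6J (circles), AKR/J (squares) and DBA/2J (triangles). The genes were chosen in C57BL/6J, so its values tend to be the outermost; Cirbp and Ugt2b35 lie below 0 in all 3 strains and Lpin1 lies above 0 in all 3.

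The test of the difference itself called 10 probe sets between C57BL/6J and AKR/J (0.0222%) and 8 between C57BL/6J and DBA/2J (0.0178%). These small counts moved with single arrays. The first was 20 without sleep-deprived array 2 of C57BL/6J. The second was 15 without sleep-deprived array 1, 4 without control array 2, 3 without sleep-deprived array 3, and 5 or 2 without sleep-deprived array 1 or 3 of DBA/2J. The effect on Hsp90aa1 was smaller in C57BL/6J than in AKR/J. Hsp90aa1, the inducible cytosolic HSP90, went from 10.56, 10.55 and 10.64 to 10.89, 10.93 and 10.78 in C57BL/6J, and from 9.29, 9.67 and 9.60 to 11.05, 11.30 and 11.28 in AKR/J. Sleep-deprived means were 10.87 and 11.21, while the control mean was 10.58 in C57BL/6J and 9.52 in AKR/J, so the strains differed more among controls. The change was 0.28 ± 0.10 in C57BL/6J and did not pass, against 1.69 in AKR/J, a difference of -1.41 ± 0.14 (adjusted p = 3.365e-04) that 3 of its 5 probe sets passed. Control arrays 2 and 3 of AKR/J have ZT 0 in the source name and ZT 6 in the title, and the difference also passed without them. In DBA/2J the change was 1.07 from a control mean of 9.84, and its difference from C57BL/6J did not pass (adjusted p = 0.0952). Stip1, which bridges HSP70 and HSP90, showed the same pattern with a difference of -0.96 ± 0.15 from AKR/J (adjusted p = 0.0298). It was lost under 12 of 20 alternatives, though not by leaving out AKR/J controls 2 and 3 together. In the heat shock list 15 genes rose in AKR/J and 13 in DBA/2J, against 5 in C57BL/6J, a difference in counts that was tested only gene by gene. A second probe set of Hsph1 rose by 1.29 in C57BL/6J and by 2.75 in DBA/2J, a difference of -1.46 (adjusted p = 0.0245), which for the representative one was -0.84 (adjusted p = 0.6084).

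Creld2 went from 8.97, 8.79 and 8.76 to 9.52, 9.19 and 9.56 in C57BL/6J and from 7.62, 7.68 and 7.67 to 10.12, 9.76 and 10.09 in AKR/J. Controls were lower and sleep-deprived pools higher in AKR/J. The difference of the effects was -1.75 ± 0.18 (adjusted p = 3.365e-04). Manf, another secreted ER stress protein, gave -0.05 ± 0.14 in C57BL/6J and rose by 1.11 in AKR/J, a difference of -1.16 (adjusted p = 0.0463). That difference was lost under 13 of 20 alternatives, among them the omission of these 2 controls. In the ER list 9 genes rose in AKR/J and 1 in DBA/2J.

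Other differences ran the opposite way. Rrm2 had a control mean of 4.36 and a sleep-deprived mean of 4.13 in DBA/2J, near the array medians, and its effect was larger in C57BL/6J by 1.71 (adjusted p = 0.0123). The effect of a dimmer Rrm2 probe set was also larger than in AKR/J, by 1.29 ± 0.18 (adjusted p = 0.0068), while for the representative one that difference was 1.04 (adjusted p = 0.1975). A second Lpin1 probe set went from 8.50, 7.83 and 8.57 to 10.65, 10.65 and 10.79 in C57BL/6J and only from 6.98, 7.29 and 7.32 to 8.06, 7.92 and 7.79 in DBA/2J. One Clec2h probe set fell from 6.50, 7.06 and 5.61 to 3.55, 4.04 and 3.31 in C57BL/6J (-2.75 ± 0.24, adjusted p = 1.546e-05), and its effect differed from AKR/J by -2.88 (adjusted p = 0.0010). In AKR/J and DBA/2J it read 2.53 to 3.04 in controls, near the lowest value of the liver arrays, 2.12, so no fall could be measured there. Rnf186 fell in C57BL/6J and gave 0.16 in DBA/2J, a difference of -0.93 (adjusted p = 0.0245) lost under 9 of 19 alternatives. The predicted gene Gm7969 rose by 0.71 ± 0.10 in C57BL/6J and read 2.42 to 2.88 on the AKR/J and DBA/2J arrays, near that lowest value, where no fall and little of a rise can be read.

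**Figure D5:**
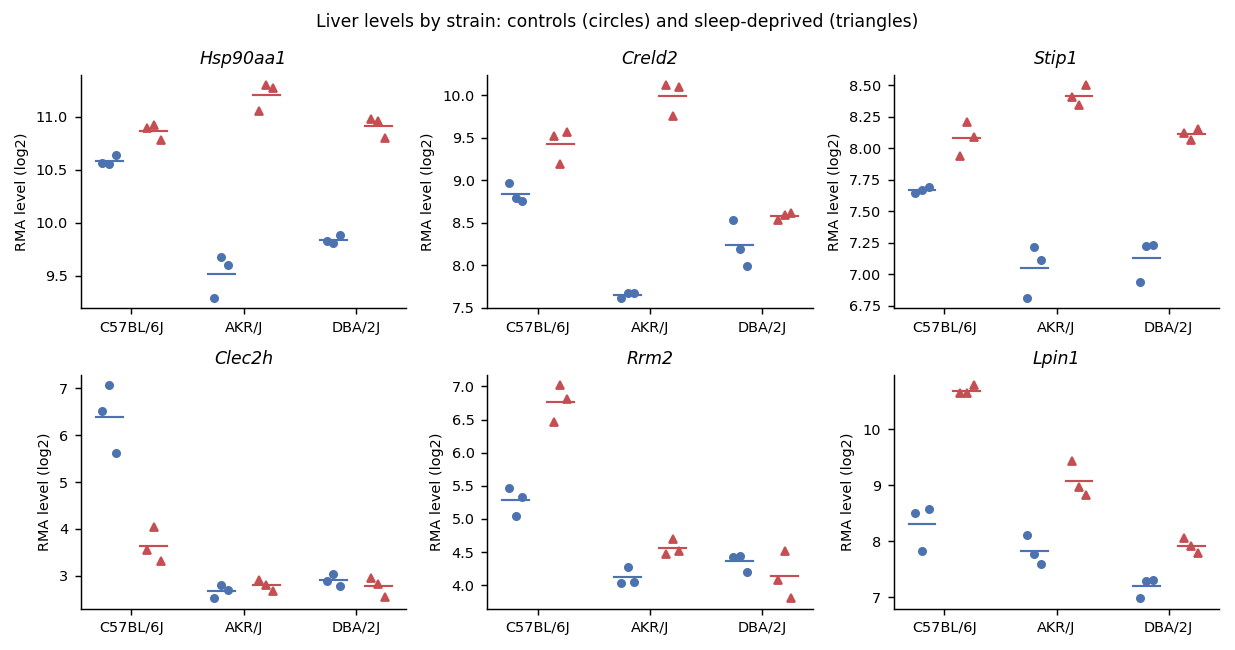
RMA level (log2, vertical, with a scale of its own for each gene) on every liver array of the 3 strains, with control arrays as circles, sleep-deprived arrays as triangles and group means as lines; Clec2h and Lpin1 are shown by the probe set whose effect differed. Hsp90aa1, Creld2 and Stip1 start lower in AKR/J controls than in C57BL/6J controls, and Clec2h is near the bottom of the scale in AKR/J and DBA/2J.

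In C57BL/6J brain, where controls and sleep-deprived mice were arranged alike, limma called 19 probe sets (0.0422%) and 9 genes (0.0495%), of which 6 rose (0.033%) and 3 fell (0.0165%). Of the 120 genes that rose in liver 2 rose in brain, Chordc1 (0.63) and Creld2 (0.68), and Cirbp was the only gene of the 26 to fall in both (-1.02 in brain). The effect differed between the tissues for 79 probe sets (0.175%), 69 of them higher in liver (0.153%). Lpin1 gave -0.12 in brain, a difference of 2.39 ± 0.23 with the lowest adjusted p among representative probe sets (4.307e-07). Ccn2 gave -0.04 in brain (difference 2.56 ± 0.37, adjusted p = 3.211e-04). Zbtb16 gave 0.57 in brain, a difference of 1.33 ± 0.25 (adjusted p = 0.0094), while Tsc22d3 gave 0.60 and its difference of 0.91 did not pass (adjusted p = 0.2001). Hspa5 rose in brain by 0.81 and did not pass in liver, a difference of -0.69 (adjusted p = 0.0086). Sgk1 rose in brain by 1.30 and gave 0.55 in liver without passing there, and its difference between the tissues did not pass. Without sleep-deprived liver array 3 the difference was called for 36 probe sets, without each of the brain control arrays for 50 to 52, without sleep-deprived brain array 1 for 46, and from the 12 C57BL/6J arrays alone for 33.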

How the data were processed

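RNA from 36 pools (3 mice each) was hybridised to Affymetrix arrays. The authors deposited log2 expression values made with RMA, per the submitters' processing notes, and no source used here gives the RMA version. They were used without further normalisation. RMA shrinks changes at low signal, and a shift common to all genes cannot be seen after it. Arrays carry no read depth, and their number limits the precision. Of 45101 probe sets, 64 controls were left out. Of the 45037 tested, 34945 had 1 gene symbol from the platform annotation, updated by gene identifier for 34741, while 932 had several and 9160 none. The probe set of highest mean over the 18 liver arrays stood for its gene.

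Limma 3.58.1 in R 4.3.3 fitted 6 liver group means over 18 arrays (12 over 36 for brain), with two-sided p-values and Benjamini-Hochberg adjustment over all probe sets. Values after ± are limma's standard errors with n = 3. The fits were tested on simulated data. P-values measure the spread between pools. Same-numbered control and sleep-deprived arrays had correlated deviations of 0.0192 to 0.0966, so the numbers were not taken as pairs. The labels of 2 AKR/J liver controls conflict (ZT 0 in the source name, ZT 6 in the title), and they were kept.

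Named genes were up to 15 called rises and 15 falls, up to 4 genes of each list, up to 5 of each strain or tissue difference and a fixed set; other names were chosen after their values were seen. The members, the 21 pathway lists, the 14 marker lists and the motifs were chosen with earlier results of these data known. Rbm3 is not reported here. Alternatives were the 6 arrays alone, median centring, quantile normalisation, a filter on dim probe sets, trended variances, array weights, a replicate block, omitted arrays and gene means over probe sets.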

Additional observations from a re-analysis of the deposited data

Results flagged for a closer look

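The effect of sleep deprivation in C57BL/6J liver differed from that in another strain or tissue, by limma's test of the difference, for 13 results. Against AKR/J liver the differences (log2, C57BL/6J minus AKR/J) were -1.75 for Creld2, -1.41 for Hsp90aa1, -1.16 for Manf, -0.96 for Stip1 and 0.94 for Gm7969. Against DBA/2J liver they were 1.71 for Rrm2, -0.93 for Rnf186 and 0.86 for Gm7969. Those of Rnf186 and Gm7969 were lost under 9 of 19 and 12 of 18 alternatives, and that of Gm7969 against AKR/J under 3 of 19. Gm7969 read 2.42 to 2.88 on the AKR/J and DBA/2J arrays, near the bottom of the scale, where no fall and little of a rise can be read, so its differences rest on the C57BL/6J arrays. Against C57BL/6J brain they were 2.39 for Lpin1, 1.59 for Rrm2, 1.32 for Tbc1d8, 1.16 for Tedc2 and -1.56 for Gm19439, of which the last rose in brain and read 3.21 to 3.43 on all 6 liver arrays, near the bottom of the scale.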

How the results depend on the processing

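The 277 called probe sets kept their direction under each alternative that tests probe sets. The filter on level tested 251 of them, all with the same direction. This was largely fixed by how they were chosen. By representative probe set the groups of all 120 risers and 26 fallers did not overlap, so leaving out 1 array could not reverse them. The fit of 6 arrays alone and the trended variances leave the estimated change as it is. Of 46 named called genes 25 passed under each of 16 alternatives, 21 were lost under some and 0 reversed. Leaving out 1 array gave 108 to 304 probe sets (95 to 259 higher, 13 to 50 lower) and 60 to 161 genes (50 to 132 higher, 10 to 29 lower), with the lowest counts without sleep-deprived array 3. The 6 arrays alone called 219 probe sets, 174 of the 277 among them, with 27 lower, and array weights 70 lower probe sets and 41 lower genes. With a replicate block, 228 probe sets and 122 genes were called, 200 of the 277 among them, and the numbers do not pair the arrays by the check on deviations.

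The difference from AKR/J was called for 6 probe sets (1 higher) among those above the median level and for 17 (5 higher, 12 lower) with trended variances, for 0 higher ones without the 2 controls of conflicting label, and for 7 to 20 (1 to 13 higher, 5 to 10 lower) with 1 array left out. That from DBA/2J was called for 5 (2 lower) above the median level, with 7 lower under trended variances, and for 2 to 15 (1 to 9 higher, 1 to 6 lower) with 1 array left out. That from brain was called for 33 (30 higher, 3 lower) from 12 arrays alone and for 36 to 112 (30 to 93 higher, 5 to 19 lower) with 1 array left out. The cause of these moves was not tested. Several of these settings also use fewer arrays or probe sets.

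The glucocorticoid list had 7 to 12 risers, the heat shock list 3 to 6 and the gluconeogenesis list 1 to 5 with 1 array left out, and the last had 1 with the replicate block. Genes not called changed sign in some settings: Irs2 gave 0.0052 with median centring and -0.21 to 0.10 with 1 array left out, Nr1d1 -0.0239 after quantile normalisation and -0.12 to 0.12, and Slc11a2 0.0009 and Homer1 0.0253 as means over probe sets. With 1 array left out the ranges were -0.23 to 1.85 for Cyp4a14, -0.33 to 1.28 for Cyp2b9, -0.16 to 0.16 for Manf, -0.0756 to 0.0101 for Gm19439, -0.13 to 0.0003 for Igf1, -0.86 to 1.78 for Lcn2, -0.0893 to 0.31 for Bhlhe40 and -0.0536 to 0.45 for Syvn1. The 3 pools in a group and the low signal of dim probe sets limit what can be called.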

Other observations

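The following called genes lie outside the lists and were named after their values were seen. Il1r1, the interleukin-1 receptor, read 7.96, 7.67 and 7.82 in controls and 8.74, 8.52 and 9.29 after sleep deprivation, and rose by 1.04 ± 0.17 (adjusted p = 0.0042). Sleep-deprived array 3 was the highest. Osmr, the oncostatin M receptor, rose by 0.77 ± 0.17 (adjusted p = 0.0445), Tnfrsf1b, a tumour necrosis factor receptor, by 0.78 ± 0.15 (adjusted p = 0.0124) and Vcam1, an endothelial adhesion molecule, by 0.76 ± 0.16 (adjusted p = 0.0361). The changes of Il1r1, Osmr, Tnfrsf1b and Vcam1 were 0.05 to 0.23 in AKR/J and 0.22 to 0.46 in DBA/2J, and none passed there. Their differences from C57BL/6J did not pass either (adjusted p from 0.5023 to 0.9646). Slc39a14, a zinc and iron importer, rose by 0.67 ± 0.14 (adjusted p = 0.0289).

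St3gal5, the synthase of ganglioside GM3, rose by 1.30 ± 0.18 (adjusted p = 0.0011) in C57BL/6J and by 1.02 in DBA/2J, with 0.27 in AKR/J. Its difference between C57BL/6J and AKR/J did not pass. Nedd4l, a ubiquitin ligase of membrane transporters, rose by 1.34 ± 0.18 (adjusted p = 5.212e-04). Atg14, a subunit of an autophagy lipid kinase complex, rose by 0.50 ± 0.10, and Trp53inp1, a p53-induced protein, by 0.75 ± 0.12. Igkv8-30, an immunoglobulin light chain variable segment, rose by 1.14 ± 0.24 and gave 0.01 in AKR/J, a difference that did not pass.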
